A study of Homo sapiens and Mus musculus with 92 samples.

Results

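The BCL2 family decides whether a cell commits to mitochondrial apoptosis, and 10 of its genes were followed after knockdown (KD) of MLL1 or AF9 in HEL cells. They were taken as the rows of both count tables whose symbol is BCL2, BCL2L1, MCL1, BAX, BAK1, BCL2L11, BBC3, PMAIP1, BID or BAD, which gave 10 of 28103 genes. HEL is an established human erythroleukemia line without rearrangement of MLL1, labelled as erythroblast, and it was used by the study for its high AF9 expression. RNA-seq of polyA RNA was made in 4 groups. In the MLL1 experiment there were 3 control and 3 KD libraries, and in the AF9 experiment, which had controls of its own, there were 2 and 2. All groups were transduced with a lentiviral pLKO.1 shRNA vector and selected with puromycin. The control cells, whose genotype is labelled WT, carried a control shRNA, and each KD group carried a single shRNA against KMT2A (encoding MLL1) or MLLT3 (encoding AF9), so an effect of that shRNA on other transcripts cannot be told apart from the loss of its target. KMT2A stood at 1318, 1302 and 1254 CPM (counts scaled to library size) in controls and at 815, 812 and 832 CPM in MLL1 KD cells, or 63.5% of control (adjusted p = 0.0722 by edgeR, and 2.5e-07 with the replicate number as a block). MLLT3 stood at 547 and 527 CPM in controls and fell to 107 and 92.5 CPM in AF9 KD cells, or 18.6% of control (adjusted p = 2.97e-08 by edgeR).

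Proteins of the family fall into 3 classes. The antiapoptotic BCL2, BCL2L1 (BCL-XL) and MCL1 hold the effectors BAX and BAK1 in check, and the effectors, once active, oligomerize and permeabilize the outer mitochondrial membrane so that cytochrome c escapes and caspases are activated. BH3-only proteins sense stress and tip this balance. Among them BCL2L11 (BIM), BID and BBC3 (PUMA) bind all antiapoptotic members, PMAIP1 (NOXA) is directed mainly at MCL1, and BAD mainly at BCL2 and BCL-XL. In the erythroid lineage BCL-XL is known as the main survival factor of maturing erythroblasts. MLL1 is a histone H3K4 methyltransferase whose CXXC domain binds unmethylated CpG, and AF9 is a YEATS domain reader of acylated histones and a subunit of elongation complexes.

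Depth was 6966345 to 10380241 counts per library in the MLL1 experiment and 12278989 to 14232408 in the AF9 experiment, and members had between 24 and 5186 counts in a library. Of 8 erythroid markers all 8 reached 1 CPM in both experiments, as did 5 of 5 megakaryocyte markers. Replicate 1 of the MLL1 experiment stood apart from replicates 2 and 3 in both groups: chi-square per degree of freedom was 29.9 to 57.6 for pairs that include it, and 2.35 and 2.63 for replicates 2 and 3. Same-numbered control and KD libraries deviated together (correlations of 0.647, 0.325 and 0.351), so that each result of this experiment is also given from a fit with the replicate number as a block wherever its call changes. A gene was called when its fold change was at least 1.5 and its adjusted p value (edgeR quasi-likelihood test, Benjamini-Hochberg over all genes tested) was under 0.05.

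The shRNAs are shown first because a guide strand can also repress transcripts through its seed, bases 2 to 8. The target sites are given with the bases opposite the seed in capitals.
MLL1 shRNA #1 target in KMT2A: gcactgttaaacaTTCCACTt
AF9 shRNA #1 target in MLLT3: ttcaaagcctcacAAATTAAt
Of the 10 members, 2 carried the TTCCACT match in the 3′UTR of their canonical transcript, and 4 carried the AAATTAA match. Among genes tested that have an annotated 3′UTR, 15.0% of 11933 carried the first in the MLL1 experiment. In the AF9 experiment 29.0% of 11641 such genes carried the second. All matches are printed below with the seed match in capitals.
BCL2, MLL1 shRNA #1: gctcagaaTTCCACTgtcaagaa
BID, MLL1 shRNA #1: gcctttatTTCCACTgtgcaggt
BID, MLL1 shRNA #1: atgaaaaaTTCCACTcaaaatag
BCL2, AF9 shRNA #1: attttataAAATTAAgcaatgtg
MCL1, AF9 shRNA #1: ccaactacAAATTAAtgttggtt
PMAIP1, AF9 shRNA #1: cttaatgtAAATTAAgaatattt
BID, AF9 shRNA #1: ccacttaaAAATTAAattggaaa
The members with a match to AF9 shRNA #1 were thus BCL2, MCL1, PMAIP1 and BID. The part of these matches in any change was not tested.

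Promoters of the members differ in CpG content, which is given because MLL1 binds CpG-rich promoters. RefSeq promoter entries (GRCh38.p14) matched 9 of the 10 members, all but MCL1. In the 250 bases before the start site CpG dinucleotides numbered 36 in PMAIP1, 34 in BCL2L11, 25 in BAX, 24 in BCL2, 20 in BAD, 12 in BCL2L1, 5 in BAK1 and 4 in BBC3, while BID, which has several entries, had 30 at its canonical start. The median over 35116 promoters was 11. The BBC3 entry lies 1468 bases from the start of its canonical transcript. The BCL2L11 promoter, chr2:111120664-111120913 on the plus strand, and the exon-free part of the BAK1 promoter, chr6:33580294-33580526 on the minus strand, are printed with CpG in capitals as a CpG-rich and a CpG-poor example from the family.
BCL2L11: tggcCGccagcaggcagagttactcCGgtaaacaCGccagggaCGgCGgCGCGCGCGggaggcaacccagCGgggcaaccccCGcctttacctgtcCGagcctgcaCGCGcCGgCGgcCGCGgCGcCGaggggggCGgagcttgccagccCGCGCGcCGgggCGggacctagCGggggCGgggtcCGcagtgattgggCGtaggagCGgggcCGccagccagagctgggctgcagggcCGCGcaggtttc
BAK1: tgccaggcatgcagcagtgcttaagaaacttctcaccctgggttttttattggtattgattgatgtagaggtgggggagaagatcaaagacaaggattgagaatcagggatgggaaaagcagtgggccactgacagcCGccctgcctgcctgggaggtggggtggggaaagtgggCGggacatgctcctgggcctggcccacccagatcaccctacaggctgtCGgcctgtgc
The E-box CACGTG, which reads the same on both strands and is bound by MYC and related factors, occurred 4 times in the 250 bases before the BAX start. The BBC3 entry held it 1 time, as did some BID entries, though not the one at its canonical start. Of all promoters 6.34% held it at all. The exon-free part of the BAX promoter, chr19:48954625-48954814 on the plus strand, holds 2 of the BAX copies, in capitals.
BAX: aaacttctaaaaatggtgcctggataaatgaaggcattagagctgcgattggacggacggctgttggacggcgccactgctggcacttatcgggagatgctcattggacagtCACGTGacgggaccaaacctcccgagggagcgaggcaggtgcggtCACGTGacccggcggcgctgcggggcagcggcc
These are matches of letters, and binding at them was not analysed here.

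BCL2L1 was the most abundant member in control cells per unit of transcript length. On the TPM scale, which also divides by transcript length, the controls of the MLL1 experiment held 622, 432 and 426 and those of the AF9 experiment held 217 and 230. It made up 57.4% (53.2 to 63.7%, n = 3) of the summed TPM of the 10 members in the first set of controls, and 28.8% (28.6 to 29.1%, n = 2) in the second. The tables were made and scaled separately, so these levels are set side by side without a test.

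In the MLL1 experiment BCL2L11 (78.6 ± 10.2 TPM, SD, n = 3) and MCL1 (65.1 ± 4.1) followed, with ranges apart from each other and from BCL2L1. PMAIP1 (42.9 ± 15.4), BAD (39.1 ± 2.02), BAK1 (37.1 ± 1.16), BAX (34.6 ± 8.88), BID (30.6 ± 7.56) and BBC3 (24.6 ± 12.5) formed a group in which each gene overlapped the next. BCL2, the gene that gave the family its name, was the lowest at 6.39 ± 0.73 TPM. These values divide by the merged length of all exons of a gene, and the order depends on that choice. With canonical transcript lengths BAX (69.7 TPM) stood above BCL2L11 (64.6) and MCL1 (64.0), while BCL2L1 stayed first and BCL2 last.

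The order differed in controls of the AF9 experiment. PMAIP1 came second at 163 TPM in both libraries, before MCL1 (140 ± 8.61, n = 2) and BCL2L11 (84.8 ± 0.233). With canonical transcript lengths MCL1 (116 TPM) stood above PMAIP1 (98.7), and BAX (85.0) above BCL2L11 (59.1). BID (53.9 ± 4.12) and BAX (49.6 ± 6.6) overlapped, as did BAK1 (22.6 ± 5.8) with BAD (17.3 ± 2.16), and BCL2 (10.5 ± 0.552) with BBC3 (9.6 ± 1.33). Summed over all members the level was 853 ± 108 TPM in the first controls and 775 ± 20.7 in the second. Antiapoptotic members held 66.0% of it in the first and 48.3% in the second, effectors held 8.41% and 9.3%, and BH3-only members held 25.6% and 42.4%.

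**Figure D1:**
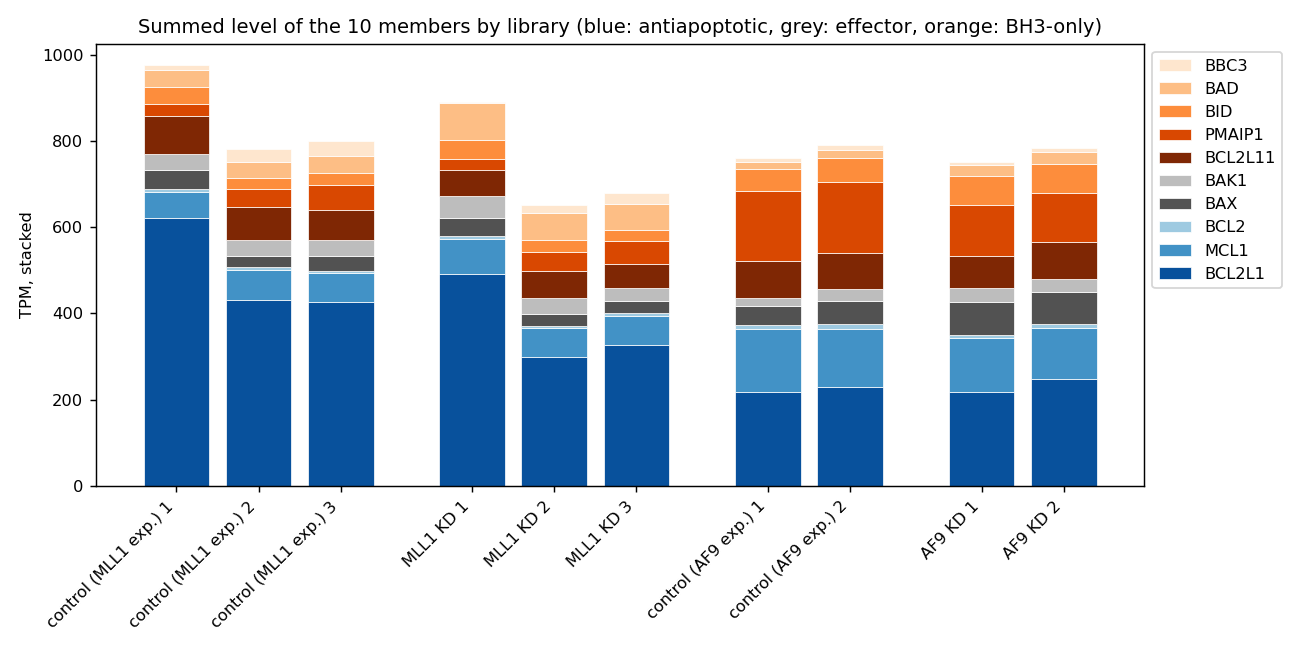
Stacked bars of TPM (vertical axis) for the 10 members in each of the 10 libraries (horizontal axis), with antiapoptotic members in blue, effectors in grey and BH3-only members in orange. BCL2L1 is the tallest segment in every library, and the PMAIP1 segment is taller in the AF9 experiment, where it stands at 112 to 163 TPM, than in the MLL1 experiment, where it stands at 24.2 to 59.0.

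BCL2L1 and BAD moved in opposite directions upon MLL1 KD, as did BCL2L11 and BAD within the BH3-only class, but whether these differences passed rested on the replicate block and, for BAD, also on the tool. In the fit without a block 0 of 10 members were called, where 0.0694% of the 14405 genes tested were called, and 2 of 10 had an unadjusted p under 0.05. With the replicate block 2 of 10 were called (BAD higher and BBC3 lower), where 4.73% of genes were called. DESeq2 without a block called BAD alone, where it called 1.61% of genes.

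BAD, which is held inactive by phosphorylation downstream of survival signals, stood at 17.0, 16.8 and 18.3 CPM in the 3 controls (replicates 1, 2 and 3) and at 35.8, 27.3 and 27.4 CPM upon MLL1 KD. Every KD library lay above every control library. The fold change was 1.74 (95% interval 1.31 to 2.30, adjusted p = 0.174) without the block and 1.73 (1.39 to 2.15, adjusted p = 0.00145) with it, and the rise was 2.1-fold, 1.63-fold and 1.5-fold within replicates 1, 2 and 3. With replicates 2 and 3 alone BAD stayed called, at 0.64 on the log2 scale (adjusted p = 0.00101).

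BBC3, a p53 target and among the most potent killers of the class, stood at 8.38, 24.6 and 28.6 CPM in the controls and at 2.38, 16.6 and 21.1 CPM upon MLL1 KD. Its groups overlapped, and replicate 1 lay below replicates 2 and 3 in both, but each KD library lay below the control of the same number, at 0.285, 0.674 and 0.739 of it. The log2 fold change was -0.63 ± 0.71 (SE, adjusted p = 0.860) without the block and -0.77 ± 0.21 (adjusted p = 0.0170) with it. Replicate 1 held only 65 and 24 counts of it. Without MLL1 KD replicate 1 the log2 value was -0.12 in the fit without the block, and with replicates 2 and 3 alone it was -0.49, under 1.5-fold.

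BCL2L1 stood at 656, 483 and 469 CPM in the controls, against 515, 325 and 361 CPM upon MLL1 KD. Replicate 1 lay above replicates 2 and 3 in each group, and the groups overlapped, while each KD library was below its same-numbered control, at 0.785, 0.673 and 0.770 of it. The log2 fold change was -0.42 ± 0.21 (adjusted p = 0.574) without the block. With the block it was -0.43 ± 0.07 (adjusted p = 2.18e-04), a fall that stayed under 1.5-fold.

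BCL2L11 stood at 151, 139 and 122 CPM in the controls and at 105, 111 and 97.9 CPM upon MLL1 KD. Groups did not overlap. Its log2 fold change of -0.40 ± 0.13 (adjusted p = 0.340) became -0.39 ± 0.09 with the block (adjusted p = 0.00435), also a fall under 1.5-fold.

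BCL2 stood at 18.9, 24.3 and 19.7 CPM in the controls and at 17.0, 15.1 and 16.8 CPM upon MLL1 KD. All KD libraries were below all controls, and the log2 fold change of -0.36 ± 0.18 passed the test neither without the block (adjusted p = 0.566) nor with it (adjusted p = 0.170). With replicates 2 and 3 alone the log2 value was -0.45, under 1.5-fold, with an adjusted p of 0.045. In all, 3 of 10 members had groups that did not overlap (BAD higher, BCL2 and BCL2L11 lower), as did 17.7% of all genes tested.

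The remaining members passed the adjusted threshold neither without nor with the block. MCL1, a short-lived protein that is turned over by the proteasome, stood at 94.5, 112 and 110 CPM in the controls and at 127, 111 and 114 CPM upon MLL1 KD, a 1.11-fold difference (0.908 to 1.36). BAX stood at 0.938-fold (0.630 to 1.39), BAK1 at 1.05-fold (0.765 to 1.44), PMAIP1 at 0.924-fold (0.511 to 1.67) and BID at 1.08-fold (0.730 to 1.59). The upper bounds of these 5 intervals thus run from 1.36-fold to 1.67-fold. BAK1 shares 17.4% of its 31-base stretches with the pseudogenes BAK1P1 and BAK1P2, so its counts are uncertain. In replicate 1 PMAIP1 lay below replicates 2 and 3 in both groups (15.6 against 24.0 and 33.8 CPM in control), and BAX, BID and BCL2L1 lay above them in both groups.

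Over the family the median log2 fold change in MLL1 KD was -0.10, against 0.01 for all genes tested. Antiapoptotic members held 60.3% (57.0 to 65.0%) of the summed TPM in MLL1 KD cells, against 66.0% (62.4 to 70.5%) in control cells. BAD held 9.27% (8.93 to 9.46%), against 4.63% (4.06 to 5.11%). These shares were not tested, and the ranges of the antiapoptotic share overlap.

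**Figure D2:**
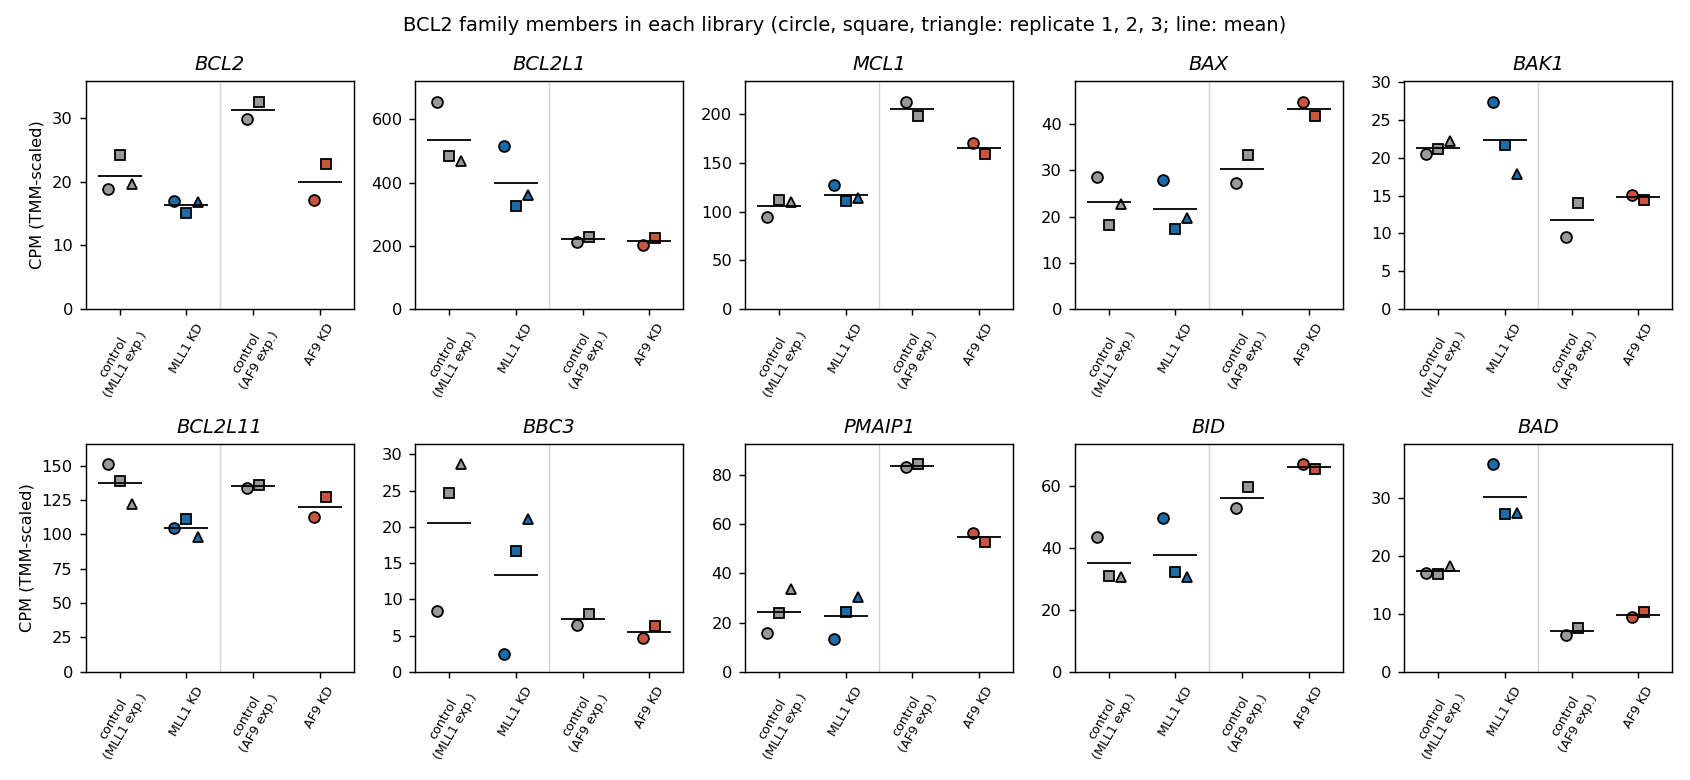
CPM scaled by TMM factors (vertical axis, from 0) of each member in the 4 groups (horizontal axis), 1 symbol per library and a line at the group mean. BAD in MLL1 KD (27.3 to 35.8 CPM) lies above its controls (16.8 to 18.3 CPM), PMAIP1 and BCL2 in AF9 KD lie below theirs, and circles (replicate 1) stand apart for BBC3, BCL2L1 and BID in the MLL1 experiment.

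Upon AF9 KD PMAIP1 and BCL2 fell and were called, while BAX rose and MCL1 fell by less than 1.5-fold. That is 2 of 10 members called, where 13.1% of the 13348 genes tested were called, 5.06% lower and 8.02% higher. Counting any fold change, 4 of 10 members passed the adjusted threshold, as did 29% of all genes. Groups did not overlap for 9 of 10 members, all but BCL2L1, and for 66% of all genes.

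PMAIP1 had 83.3 and 84.3 CPM in control and 56.4 and 52.8 CPM in AF9 KD libraries. Both KD libraries lay well below both controls. The fold change was 0.651 (95% interval 0.562 to 0.755), or -0.62 ± 0.10 on the log2 scale (adjusted p = 5.99e-04). Without AF9 KD replicate 2 the log2 value was -0.57, just under the 1.5-fold threshold.

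BCL2 had 29.9 and 32.6 CPM in control and 17.1 and 22.8 CPM after AF9 KD. The KD libraries differed from each other more than the controls did, and both were below them. The fold change was 0.639 (0.512 to 0.798), or -0.65 ± 0.15 on the log2 scale (adjusted p = 0.00574). Without AF9 KD replicate 1 it was -0.45 and without control replicate 2 it was -0.58, in both cases under 1.5-fold with an adjusted p under the threshold.

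MCL1, the preferred partner of NOXA, had 213 and 198 CPM in control and 171 and 159 CPM in AF9 KD libraries. Its fall to 0.802-fold (0.697 to 0.923) was -0.32 ± 0.09 on the log2 scale (adjusted p = 0.0216). It did not pass without control replicate 1 (adjusted p = 0.312), without control replicate 2 (adjusted p = 0.0818) or when scaled by total counts (adjusted p = 0.0722). BCL2L1, at 213 and 229 CPM in control and 203 and 226 CPM after AF9 KD, overlapped between groups and differed by 0.971-fold (0.841 to 1.12).

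BAX had 27.2 and 33.3 CPM in control and 44.8 and 41.7 CPM in AF9 KD libraries. All KD values were above the controls. The rise was 1.43-fold (1.19 to 1.73), or 0.52 ± 0.13 on the log2 scale (adjusted p = 0.00823). Without control replicate 2 it was 0.67 and was called, whereas without control replicate 1 it was 0.38 and did not pass (adjusted p = 0.176), nor did it with offsets for exon GC content, at 0.11 (adjusted p = 0.526). BAK1, the other effector, had 9.58 and 14.0 CPM in control and 15.1 and 14.4 CPM after AF9 KD, 1.26-fold (0.952 to 1.65, adjusted p = 0.204).

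BH3-only members other than PMAIP1 did not pass the adjusted threshold. BAD had 6.31 and 7.63 CPM in control and 9.43 and 10.3 CPM after AF9 KD, 1.42-fold (1.07 to 1.89, adjusted p = 0.0622). BID had 52.8 and 59.6 CPM in control and 67 and 65.5 CPM after AF9 KD, 1.18-fold (1.01 to 1.38, adjusted p = 0.101). For both genes the KD libraries were above the controls. BCL2L11 (134 and 136 against 113 and 127 CPM, 0.892-fold, 0.773 to 1.03) and BBC3 (6.46 and 7.97 against 4.72 and 6.36 CPM, 0.771-fold, 0.549 to 1.08) were lower in KD libraries than in controls, BBC3 on 61 to 95 counts per library.

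The fold changes of AF9 KD moved with the GC content of exons over all genes, and the family spans much of that range. The median log2 fold change of all genes ran from -0.24 where exons had 34 to 36% GC to 0.83 at 66 to 68%, whereas in MLL1 KD the medians lay between -0.03 and 0.07. Exon GC content was 40.0% for PMAIP1, 43.3% for BCL2, 45.5% for MCL1, 47.4% for BCL2L11, 53.0% for BID, 57.8% for BCL2L1, 58.8% for BAK1, 60.7% for BAX, 64.4% for BBC3 and 64.7% for BAD. The 3 members that fell in AF9 KD have the lowest GC content of the family, and the member that rose lies among the highest 3.

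Against genes of like GC content the picture of the family changed. PMAIP1, BCL2 and MCL1 lay below the quartiles of genes in the same 2% interval, whose medians were -0.15, -0.13 and -0.08. BAX lay within them, at 0.52 against a median of 0.42, and so did BAK1 and BAD. BBC3, at -0.37, lay far below the median of 0.73 in its interval, and BCL2L1, at -0.04, below the median of 0.23.

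With offsets that removed the trend with GC content from each library, 1 of 10 members was called, where 7.99% of genes were called. It was BBC3, whose log2 fold change was -1.01 ± 0.19 (adjusted p = 0.00238). PMAIP1 (-0.45, adjusted p = 0.00194), BCL2 (-0.52, adjusted p = 0.0190), MCL1 (-0.23, adjusted p = 0.0402) and BCL2L1 (-0.32, adjusted p = 0.00800) fell by less than 1.5-fold. BAX was at 0.11 (adjusted p = 0.526), BAK1 at 0.02 and BAD at -0.14, none of which passed. The fall of PMAIP1, BCL2 and MCL1 passed the adjusted threshold under both.

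**Figure D3:**
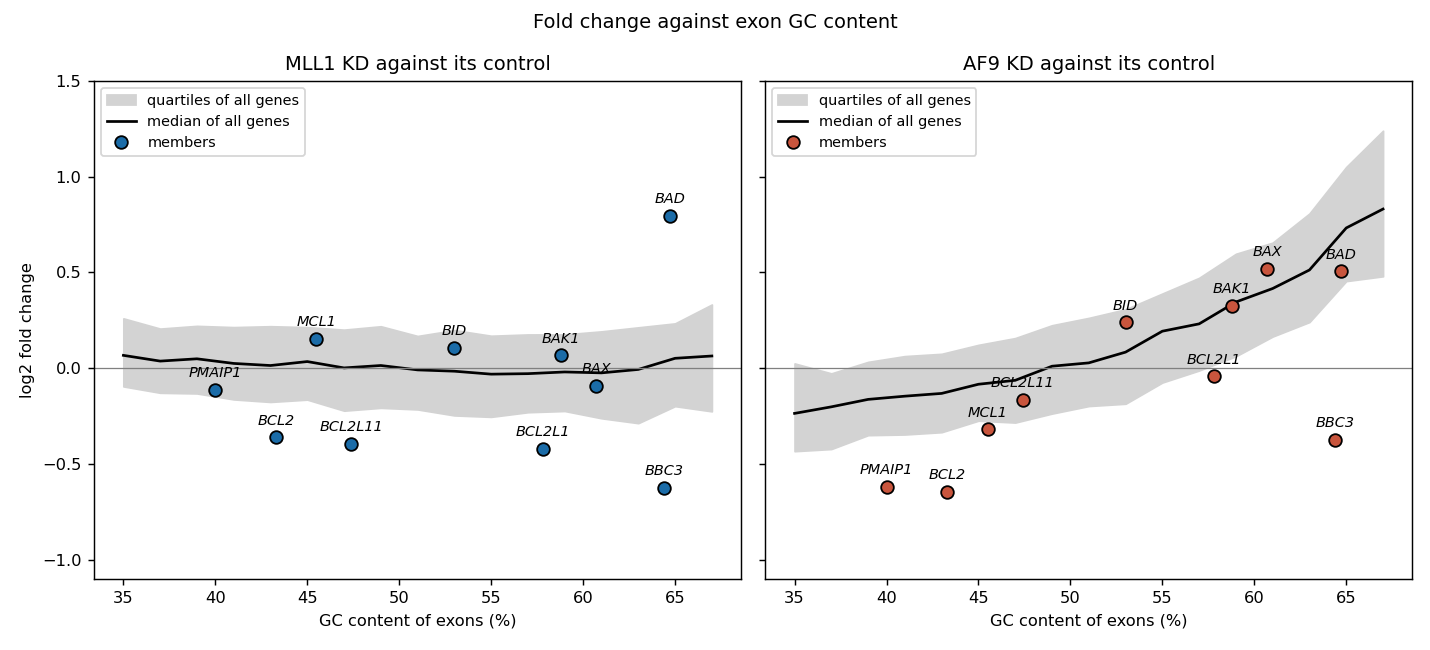
Log2 fold change without offsets (vertical axis) against GC content of exons in percent (horizontal axis) for the 10 members, over the median (line) and quartiles (grey) of all genes in intervals of 2% GC, with MLL1 KD on the left and AF9 KD on the right. In AF9 KD the line climbs from -0.24 to 0.83. There BAX, BAK1, BAD, BID and BCL2L11 lie within the grey band, and BBC3, PMAIP1, BCL2, MCL1 and BCL2L1 below it. In MLL1 KD the line stays near 0.

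Scaling by total counts in place of TMM factors gave 1416 genes higher and 440 lower in AF9 KD, against 1070 and 675. Under it BAX (0.61) and BAD (0.60, adjusted p = 0.0380) were called, and PMAIP1 (-0.53) and BCL2 (-0.56) stayed lower but under 1.5-fold. MCL1, at -0.23, no longer passed.

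Over the family the median log2 fold change in AF9 KD was -0.10, against 0.01 for all genes tested. Effectors made up 13.9% (13.3 to 14.5%, n = 2) of the summed TPM in AF9 KD cells, against 9.3% (8.35 to 10.3%) in control cells, BH3-only members 38.9% against 42.4%, and antiapoptotic members 47.2% against 48.3%. The summed level was 768 ± 22.0 TPM, against 775 ± 20.7 in control cells. No test was made of these shares.

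**Figure D4:**
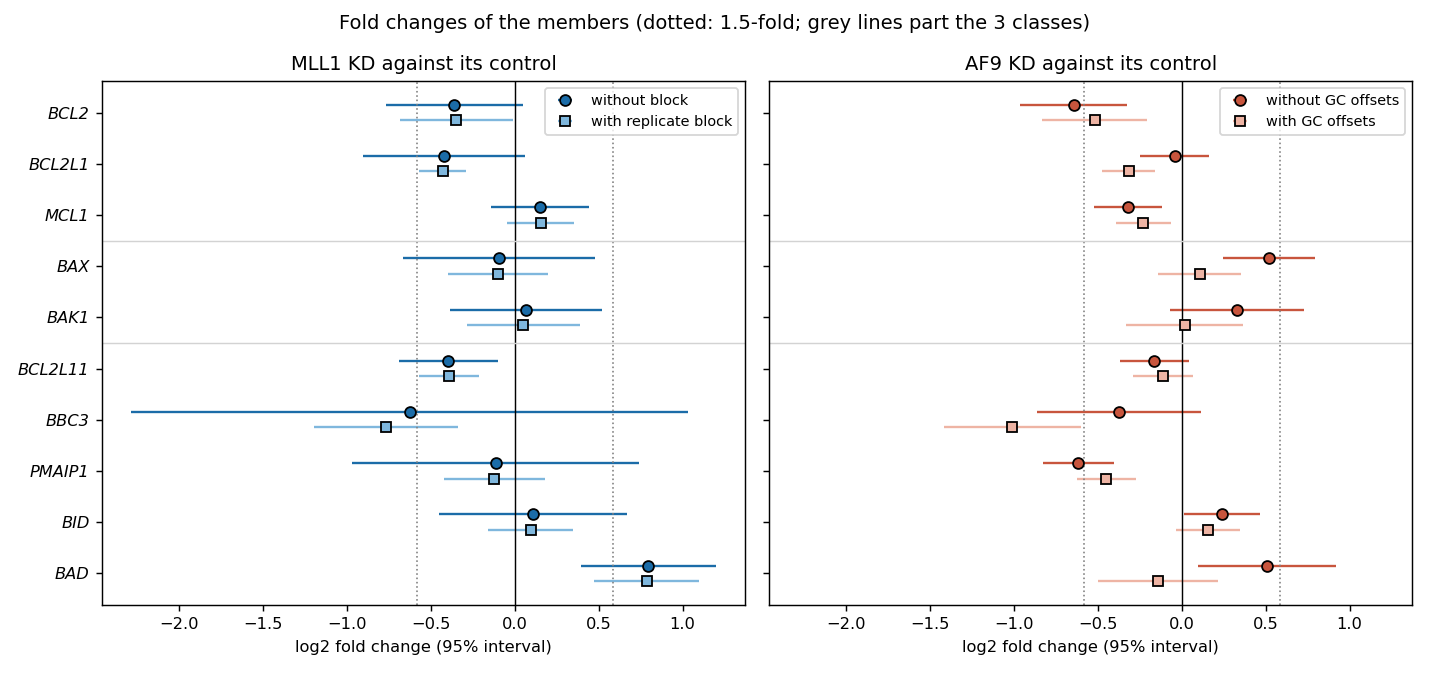
Log2 fold changes (horizontal axis) with 95% intervals for the 10 members (vertical axis, by class), MLL1 KD without (circle) and with (square) the replicate block on the left, AF9 KD without (circle) and with (square) GC offsets on the right. The block narrows the interval of BBC3 from -2.29 to 1.03 down to -1.20 to -0.34 with BAD to the right of 0 in both fits, and GC offsets move BAX from 0.52 to 0.11 and BBC3 from -0.37 to -1.01.

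To ask whether the members respond differently to KD of MLL1 and of AF9, the effects were compared in a joint fit of all 10 libraries. KMT2A was lower in AF9 KD too, at 372 and 372 CPM against 474 and 455 in controls. MLLT3 stood at 147, 205 and 175 CPM in MLL1 KD, against 188, 227 and 227 in same-numbered controls. By Western blot the study found neither protein changed by KD of the other. Without a block the difference passed the adjusted threshold for 0 of 10 members in edgeR, where 1.36% of 12748 genes passed, and 1 of 10 had an unadjusted p under 0.05. DESeq2 also gave 0 of 10 and 1 of 10. With the replicate block for the MLL1 experiment 4 of 10 members passed, where 22.3% of genes did. BAX was higher in AF9 KD relative to MLL1 KD by 0.60 ± 0.19 on the log2 scale (adjusted p = 0.0272). BCL2L1 was higher by 0.37 ± 0.12 (adjusted p = 0.0373). MCL1 was lower by 0.49 ± 0.14 (adjusted p = 0.0197) and PMAIP1 was lower by 0.52 ± 0.16 (adjusted p = 0.0286). BAD, higher than control in both experiments though its rise in AF9 KD did not pass (adjusted p = 0.0622), differed by -0.30 (interval -0.81 to 0.20). BCL2, lower than control in both, differed by -0.32 (-0.78 to 0.15). With GC offsets and no block 0 of 10 passed, and 2 of 10 had an unadjusted p under 0.05. BAX was then at 0.17, BCL2L1 at 0.06 and MCL1 at -0.40. Over all settings tried the difference for BAD ran from -0.94 to -0.17. In AF9 KD against control, BAD was at -0.14 with GC offsets.

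Among 12 other family genes 7 were expressed enough to be tested. BMF, a BH3-only protein that is sequestered by dynein light chains, fell in MLL1 KD with the block (-0.75 ± 0.24 on the log2 scale, adjusted p = 0.0427), from 18.9 ± 3.74 CPM to 12.5 ± 7.58 (SD, n = 3). It did not pass without the block (-0.61, adjusted p = 0.775), and MLL1 KD replicate 1 was the lowest library with 38 counts. In AF9 KD 0 of 7 were called, where 13.1% of all genes were, and 2 of 7 had an adjusted p under 0.05, both lower, a share close to the 29% of all genes. BCL2L10, BOK, BIK, HRK and BCL2L14 had at most 5 counts in any library and were not tested.

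Of 16 genes that act downstream of mitochondrial permeabilization, all tested, 0 were called in MLL1 KD under either fit, and 3 had an adjusted p under 0.05 with the block, all of them higher, where 13.6% of all genes had one. In AF9 KD 2 of 16 were called, a share close to the 13.1% of all genes. They were BIRC2 and BIRC3, ubiquitin ligases of the IAP family that restrain caspase-8 signaling. BIRC2 fell from 115 ± 6.77 to 74.2 ± 6.86 CPM (SD, n = 2), or by 0.63 ± 0.10 in log2 units (adjusted p = 6.83e-04). BIRC3 fell by 1.04 ± 0.30 (adjusted p = 0.0182) on 23 to 52 counts per library. With GC offsets BIRC3 was called and BIRC2 was not. Without offsets 3 of 16 had an adjusted p under 0.05 in AF9 KD at any fold change, 0 of them higher, where 29% of all genes had one.

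Of 19 genes whose products bind, modify or degrade members, 18 were tested. With the block 2 were called in MLL1 KD, where 4.73% of all genes were. In that fit 7 of 18 had an adjusted p under 0.05, 2 of them higher, where 13.6% of all genes had one. BAG1, a co-chaperone first found as a BCL2 partner, rose from 21.8 ± 5.86 to 34.7 ± 4.05 CPM (0.69 ± 0.14 on the log2 scale, adjusted p = 0.00277). DYNLL1, the light chain that tethers BIM and BMF to dynein and myosin motors, fell by 0.86 ± 0.12 (adjusted p = 1.18e-04), from 49.2 ± 25.2 to 28.0 ± 18 CPM. Neither passed without the block (adjusted p = 0.367 and 0.662). In AF9 KD 1 of 18 was called, a share below the 13.1% of all genes, and it was again DYNLL1, which rose from 74.4 ± 5.52 to 124 ± 15.0 CPM (0.73 ± 0.11 on the log2 scale, adjusted p = 3.69e-04). At any fold change 6 of 18 had an adjusted p under 0.05 in AF9 KD, 4 of them higher, where 29% of all genes had one. PIM1, a kinase that phosphorylates BAD, was called lower with GC offsets alone (-0.73, adjusted p = 7.21e-04), and was at -0.53 without them.

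Of 16 upstream transcription factors and their targets, 14 were tested in MLL1 KD and 0 were called under either fit. Of 15 tested in AF9 KD, 3 were called, where 13.1% of all genes were. Counting any fold change, 9 of 15 had an adjusted p under 0.05, 3 of them higher, where 29% of all genes had one. FOXO1, an activator of BCL2L11 and BBC3, fell from 5.88 ± 0.719 to 2.69 ± 1.07 CPM, a log2 fold change of -1.13 ± 0.29 (adjusted p = 0.00994). DDIT3 (CHOP), a stress-induced factor, fell from 28.5 ± 1.98 to 15.2 ± 0.93 CPM (-0.90 ± 0.14, adjusted p = 4.31e-04). TNFRSF10B, the death receptor DR5, rose by 1.19 ± 0.36 (adjusted p = 0.0249) from 1.11 ± 0.382 to 2.58 ± 0.0463 CPM, on 10 to 35 counts. ATF4, a factor of the integrated stress response, was called lower with GC offsets alone (-0.74, adjusted p = 5.73e-05), and was at -0.48 without them. The median log2 fold change of this list was -0.09 in AF9 KD and 0.12 in MLL1 KD, against 0.01 for all genes in each.

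Genes that followed the pattern of a member most closely were sought over the 10 libraries, from log2 CPM centred within each experiment, for the member with the lowest p in each. BAD was best matched by TYRO3, PTMS and ADGRG1, with root mean square differences of 0.0889, 0.121 and 0.123 against a median of 0.436 over 12747 genes. PMAIP1 was best matched by SEPSECS, ABHD4 and RPS29, at 0.116, 0.118 and 0.121 against a median of 0.493.

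Some markers of blood lineages differed between KD and control libraries. In MLL1 KD no marker passed the adjusted threshold without the block. The summed level of 8 erythroid markers was 1760 to 1860 CPM in control and 1590 to 1670 in MLL1 KD libraries, and 9530 to 9650 in control and 6370 to 7780 in AF9 KD libraries. HBG2, a fetal globin, was called lower in MLL1 KD with the block (-0.72) and in AF9 KD (-0.60), with HBG1 (-0.60). These globins make up most of the sum in the AF9 experiment, and the other erythroid markers did not all follow them. Of the 8, 4 were above 0 in AF9 KD, the median log2 fold change was 0.07, and 3 of the 5 with an adjusted p under 0.05 were higher, TFRC (transferrin receptor) at 0.58 and, with GC offsets, called at 0.71. With GC offsets HBG1 was not called. The 5 megakaryocyte markers summed to 1940 to 2240 CPM in control and 1550 to 1910 in MLL1 KD libraries. With the block 4 of the 5 had an adjusted p under 0.05 in MLL1 KD, and only 1 of these was higher, PF4, at 1.19. The median log2 fold change of the 5 was -0.27 in that fit. In the AF9 experiment the megakaryocyte sums overlapped, at 1110 to 1260 CPM in control and 1150 to 1440 in KD libraries. Of these markers 0 of 5 passed the adjusted threshold in AF9 KD. GP9 was called lower in AF9 KD with GC offsets (-0.75) and was at 0.03 without them. Of 4 T cell markers only CD2 reached 1 CPM, and it rose in MLL1 KD by 1.49 with the block, while CD3D, CD3E and CD3G had at most 4 counts in any library. Of 4 B cell markers 2 and of 4 monocyte and neutrophil markers 1 reached 1 CPM. Fibroblast markers, of which 3 of 4 reached 1 CPM in the MLL1 experiment, summed to 10.1 to 15.7 CPM in its control and 13 to 25.8 in its KD libraries. The highest of these is MLL1 KD replicate 3, where COL1A1 and COL1A2 stood at 8.95 and 7.12 CPM, against at most 1.14 and 0.508 CPM in the other libraries of this experiment, and PDGFRB, the only one of the 4 tested, was at -0.07. The part of these shifts in the levels of members was not tested, and fewer cells of a state and less RNA per cell cannot be told apart in bulk RNA.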

How the data were processed

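Only the RNA-seq of the series was analysed here, 10 of 92 samples. Per the labels and the study's methods, the authors prepared dUTP strand-specific libraries, filtered reads with fastp (version 0.13.1), mapped them to hg38 with HISAT2 (version 2.1.0) and counted reads per gene and strand with featureCounts (version 1.6.1, from the submitters' processing notes). The deposited values are raw whole-number counts for 28103 gene symbols. The annotation behind them is not given in the sources used here. Strand-specific counting separates members from antisense genes, but not from genes on the same strand. There MCL1 shares 328 exon bases with ADAMTSL4-AS1, and BBC3 shares 76 with MIR3191.

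Of the symbols 92.4% were matched to GENCODE version 44 for coordinates, merged exon length and GC content. CPM were scaled with TMM factors. Tests covered genes whose mean TPM was 1 or more, 14405 in the MLL1 and 13348 in the AF9 experiment, and all 10 members passed this filter in both. The main test was the quasi-likelihood test of edgeR (version 4.0.16, R version 4.3.3) within each experiment, with group as the only term, and a joint fit of 10 libraries for the difference of effects. The study's own tool, DESeq2 (version 1.42.0), was an alternative. The replicate block in the MLL1 experiment rests on the data, where every same-numbered pair correlated above 0.1 in its deviations from the group means. AF9 pairs did so too (0.157), but with 2 libraries a group the deviations mirror each other, so that value cannot decide. In the MLL1 experiment the evidence is limited as well. The shared number mainly marks replicate 1, since replicates 2 and 3 correlate as well when crossed (0.369 and 0.359). GC offsets are a lowess trend (span 0.3) against exon GC content in each library. The trend was fitted to the deviation of each gene's log2 CPM from its mean over the libraries.

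Members, lists and tests were chosen with earlier results of these data known. Beside the members and targeted genes, every other listed gene called in either experiment, also with the block (MLL1) or GC offsets (AF9), is named. No source says that replicates came from separate cultures, so p values measure the spread between these libraries. Scripts were tested on simulated data. Promoters came from RefSeq (GRCh38.p14). Other alternatives were DESeq2's size factors, total counts, other filters on low counts, other fold change thresholds, and each library left out in turn. Protein sequences of the members and the chromatin data were not analysed here.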

Additional observations from a re-analysis of the deposited data

Results flagged for a closer look

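Effects of MLL1 KD and AF9 KD differed for 4 members in the joint fit with the replicate block for the MLL1 experiment, by the test of the difference itself. AF9 KD minus MLL1 KD was 0.60 on the log2 scale for BAX (adjusted p = 0.0272) and 0.37 for BCL2L1 (adjusted p = 0.0373). It was -0.49 for MCL1 (adjusted p = 0.0197) and -0.52 for PMAIP1 (adjusted p = 0.0286). That is 4 of 10 members, where 22.3% of all genes passed, and 0 of 10 without the block. With GC offsets and no block 0 of 10 passed, and the difference was 0.17 for BAX, 0.06 for BCL2L1 and -0.40 for MCL1. Single outlying samples were not searched for by a formal test in groups of 2 and 3 libraries.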

How the results depend on the processing

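In MLL1 KD, 0 members were called in the main fit, 2 with the replicate block, 2 with GC offsets and the replicate block, and 1 each with replicates 2 and 3 alone, with DESeq2 on the same genes and with DESeq2 on all genes. Leaving out each library in turn gave 0 to 0. Genes called in all numbered 10 in the main fit, 682 with the block and 232 with DESeq2. In AF9 KD, 2 members were called, 1 with GC offsets with or without the block, 1 to 2 with a library left out, 4 with no fold change threshold and 0 when a 2-fold change was required. Genes called numbered 1745 without and 1067 with GC offsets. For the difference of effects 0 members became 4 with the replicate block in both experiments or in the MLL1 experiment alone, the latter chosen after seeing the data. Genes passing numbered 173 in the main fit, 2844 with the latter block and 50 with GC offsets, and total counts moved the median difference of all genes from 0 to 0.11. The share of BCL2L1 in the AF9 controls was 28.8%, and 29.2% with canonical transcript lengths. The order of the members below BCL2L1 changed with these lengths in both experiments.

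Directions that reversed were those of members that did not pass in the main fit, though in AF9 KD BAD was called with total counts (0.60) and BCL2L1 passed with GC offsets (-0.32). BAK1 was at -0.15 in MLL1 KD with replicates 2 and 3 alone, BCL2L1 at 0.047 in AF9 KD with total counts, BAD at -0.14 in AF9 KD with GC offsets with or without the block, and, for the difference with GC offsets, BAK1 at -0.083 and BBC3 at -0.39. With a library left out, MLL1 KD gave -0.32 to 0.089 for BAX, -0.11 to 0.20 for BAK1, -0.39 to 0.19 for PMAIP1 and -0.15 to 0.30 for BID. AF9 KD gave -0.12 to 0.034 for BCL2L1, and the difference gave -0.010 to 0.53 for BAK1, -0.28 to 0.76 for BBC3 and -0.075 to 0.37 for BID. The causes were not tested.

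Whether AF9 replicate numbers pair the samples cannot be told from the correlation of 0.157 over 2 pairs, since 2 libraries a group mirror each other. The replicate block there kept 2 members called, moved those with an adjusted p under 0.05 from 4 to 6, and gave 1222 genes higher and 739 lower. Precision was limited by 2 libraries a group in the AF9 experiment. In the MLL1 experiment replicate 1 stood apart from replicates 2 and 3, with chi-square per degree of freedom of 29.9 to 57.6 for pairs that include it. Some members also had low counts there, with BBC3 at 24 in its lowest library.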
